A study of Rattus norvegicus with 21 samples.

Results

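Fluoxetine and tianeptine were compared at a matched dose of 10 mg/kg in the dentate gyrus of stressed rats, with 3 animals a drug, or 6 of the 18 animals of the study. The 6 animals were found by the drug named in their labels. All were male wild-type Wistar rats 2 months old. Unpredictable chronic mild stress lasted 6 weeks in each, a schedule of varied mild stressors used to model depression. Each received its drug by daily intraperitoneal injection in the last 2 weeks, fluoxetine in ultra-pure water and tianeptine in saline, so drug and vehicle cannot be told apart. The other animals serve here as reference and for the estimate of spread: 3 untreated controls and 3 each of stress alone, stress with imipramine at 10 mg/kg and stress with agomelatine at 40 mg/kg. For controls and animals with stress alone the labels mention no injection, so a drug group set against them also differs by whatever injection added. Gene levels are log2 values from Affymetrix arrays hybridised with RNA of the whole dissected tissue.

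Fluoxetine blocks the serotonin transporter and so prolongs the action of serotonin released in the hippocampus. Tianeptine has a tricyclic skeleton but does not block monoamine reuptake in the usual way. It activates the mu-opioid receptor and has been linked to glutamate signalling and to stress-induced remodelling of hippocampal neurons. The dentate gyrus is the entry station of the hippocampus, packed with glutamatergic granule neurons, and one of the places where neurons are born in adult rodents. The comparison asks whether 2 antidepressants with different primary targets left this tissue with different transcript levels.

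The dissected tissue carried its defining markers in both groups. Prox1, the transcription factor that specifies granule neurons, was at 11.59, 11.59 and 11.67 with fluoxetine and 11.53, 11.63 and 11.59 with tianeptine. C1ql2, a synaptic organiser secreted by granule neuron terminals, was at 11.87, 11.74 and 11.83 against 11.78, 11.68 and 11.79, and the calcium buffer Calb1 lay between 10.71 and 10.99 in all 6 animals. The groups overlapped at all 3 genes. Fluoxetine 3 stood apart from its group: its root mean square log2 distance to fluoxetine 1 and 2 was 0.207 and 0.202, against 0.124 between those and 0.150 to 0.161 among the tianeptine animals. Distances between animals of the 2 drugs ran from 0.146 to 0.192. The share of all tested genes at an unadjusted p under 0.05, 4.45% with all 6 animals, was 7.55% without fluoxetine 3 and 2.39% to 6% without any other 1 of the 6. Counts without an animal are to be read against the share of that fit.

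No gene differed between the drugs at the threshold used. limma called 0 of 10804 tested genes (0%) at an adjusted p under 0.05, and the lowest adjusted p was 0.998. At an unadjusted p under 0.05 there were 481 genes (4.45%), 261 higher with fluoxetine (2.42%) and 220 lower (2.04%). The 3 animals of one drug lay wholly above the 3 of the other for 1062 genes (9.83%), with fluoxetine the higher at 614 (5.68%) and the lower at 448 (4.15%). The median difference, fluoxetine minus tianeptine, was 0.01 and the median size of a difference 0.06, below the median standard error of 0.08. Only 8 genes had a difference over 0.5 in size, and 2 of those, C3 and Snrpd1, had no overlap between the drugs.

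The spread among animals sets how large a difference could have gone uncalled. The 95% interval of the difference lay within a 1.25-fold change either way for 8874 genes (82.1%), within 1.5-fold for 10648 (98.6%) and within 2-fold for 10779 (99.8%). These intervals are per gene and not widened for the number of genes. Against the same stressed animals the counts at an unadjusted p under 0.05 were 541 (5.01%) for fluoxetine and 547 (5.06%) for tianeptine, and limma called 0 genes in both (0%). Imipramine, a tricyclic blocker of serotonin and noradrenaline reuptake, gave 1191 such genes (11%) against fluoxetine and 664 (6.15%) against tianeptine, also with 0 called. These comparisons share animals, and the differences between their counts were not tested.

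**Figure D1:**
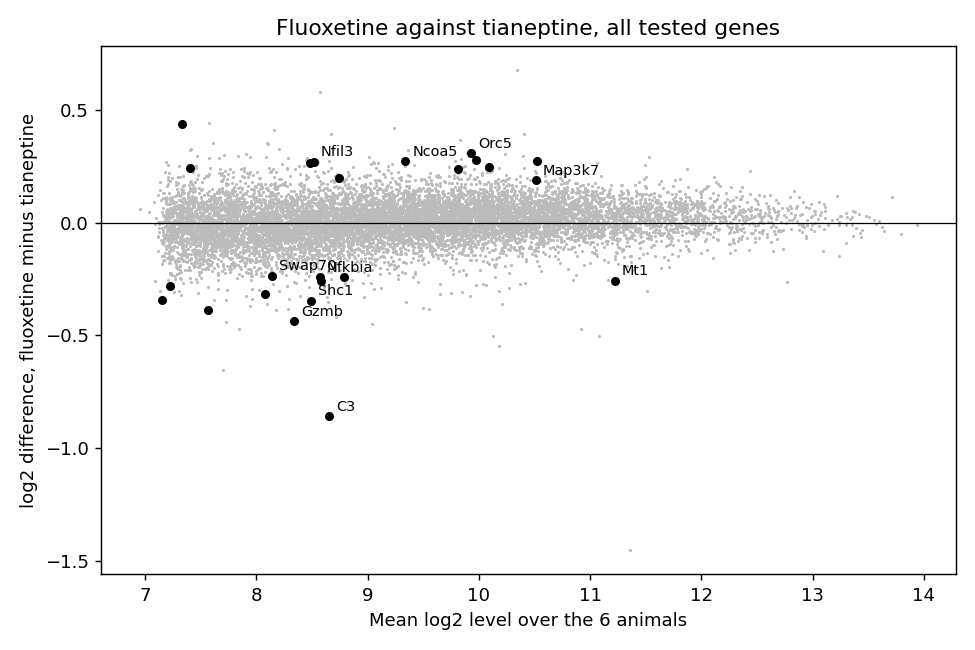
Difference between the drugs (log2, fluoxetine minus tianeptine, vertical axis) against the mean log2 level over the 6 animals (horizontal axis) for each of the 10804 tested genes, as grey points. The 24 black points are the 12 genes in each direction with the smallest unadjusted p among genes without overlap; C3 lies at -0.86, and the lone grey point at -1.45 is Ldha, where 1 animal sets the difference.

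With no gene called, the genes named next are the 12 in each direction that had the smallest unadjusted p among genes whose animals did not overlap. That choice fixes their direction and makes their intervals exclude 0, so their values are a description. C3, the central complement component made by glia and cleaved in the complement cascade, was at 8.48, 7.95 and 8.25 with fluoxetine and 9.31, 8.81 and 9.14 with tianeptine. All 3 tianeptine animals lay above all 3 fluoxetine animals. The difference was -0.86 ± 0.19 (SE, n = 3 a drug), with a 95% interval of -1.26 to -0.46. C3 with stress alone averaged 8.45 ± 0.23 (SD, n = 3), so tianeptine lay 0.63 ± 0.19 above stress and fluoxetine -0.23 ± 0.19 from it. The 15 animals without tianeptine ran from 7.95 to 8.87, and the lowest tianeptine animal fell inside that range.

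Mt1, a metallothionein that binds zinc and is induced by glucocorticoids and metals, was at 11.002, 11.037 and 11.235 with fluoxetine and 11.281, 11.342 and 11.428 with tianeptine. Every tianeptine animal lay above every one of the other 15 animals, whose highest value was 11.24. The difference between the drugs was -0.26 ± 0.08 (SE), with an interval of -0.42 to -0.10, and a further probe set for Mt1 gave -0.25. Tianeptine lay 0.34 above stress alone and 0.47 above control, where limma gave an adjusted p of 0.0634.

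The other 10 genes on the tianeptine side gave differences of -0.24 to -0.44. Nfkbia, the inhibitor that holds NF-kappaB in the cytoplasm, was at 8.49, 8.41 and 8.45 with fluoxetine and 8.76, 8.65 and 8.67 with tianeptine, a difference of -0.24 ± 0.07. Unlike C3 it lay nearer to stress alone with tianeptine, at -0.11 from stress, than with fluoxetine, at -0.35. Shc1, an adaptor that passes receptor tyrosine kinase signals to Ras, was at 8.18, 8.25 and 8.53 against 8.62, 8.60 and 8.78 (-0.35 ± 0.09). Swap70, a regulator of actin and Rac, was at 8.05, 8.06 and 7.98 against 8.27, 8.27 and 8.24 (-0.24 ± 0.06), with all 3 tianeptine animals above the fluoxetine animals. Gzmb, the granzyme of cytotoxic lymphocytes, gave -0.44 ± 0.13, and Ebi3, a subunit of heterodimeric interleukins, gave -0.32 ± 0.10. Epsti1, Krtap1-5, Rhox9, C2cd4c and Nxnl1 gave -0.24 to -0.39.

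On the fluoxetine side the differences ran from 0.19 to 0.44. Orc5, a subunit of the complex that licenses replication origins, was at 10.05, 10.06 and 10.14 with fluoxetine and 9.59, 9.93 and 9.81 with tianeptine (0.31 ± 0.08). Ncoa5, a nuclear receptor coregulator, was at 9.56, 9.42 and 9.45 against 9.13, 9.12 and 9.36 (0.27 ± 0.07). Both lay close to stress alone with fluoxetine, at 0.003 and -0.09, and below it with tianeptine, at -0.31 and -0.36. Nrf1, a transcription factor of nuclear genes for mitochondria, was at 8.83, 8.89 and 8.82 against 8.60, 8.64 and 8.70 (0.20 ± 0.06). Map3k7, the kinase TAK1 that acts downstream of cytokine receptors, gave 0.19 ± 0.06, and Pdcd10, a protein of endothelial junctions, gave 0.28 ± 0.07. Slc25a28, a mitochondrial iron carrier, gave 0.25, and the rest were LOC680428, B3galt2, Tmem43, Mindy1, C16h8orf48 and the clock gene Nfil3. The mean of the animals with stress alone lay between the means of the 2 drugs for 9 of the 12 genes on the fluoxetine side and 9 of the 12 on the tianeptine side. Tianeptine was the drug farther from stress at 9 and 8 of them. The genes were chosen for separation between the drugs, which by itself favours a stress mean inside the gap. These counts were not made over all tested genes, so they describe the chosen genes only. Whether the drugs moved levels in opposite directions from stress was not tested.

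**Figure D2:**
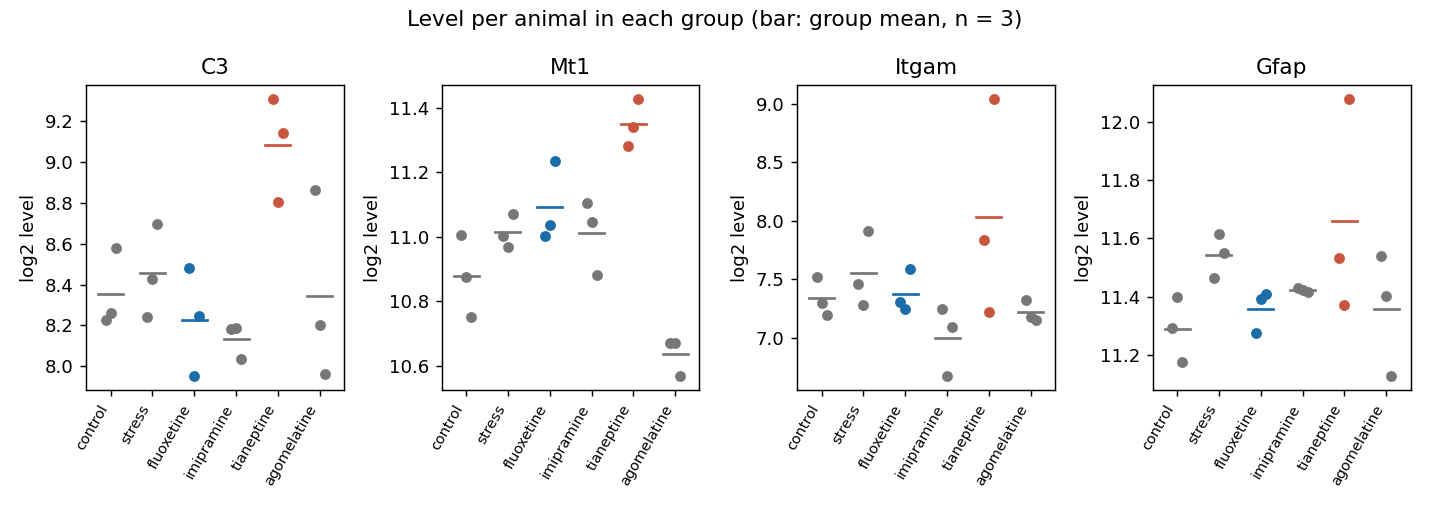
Log2 levels of C3, Mt1, Itgam and Gfap (vertical axes) in each animal of the 6 groups (horizontal axis), with 1 point per animal and a bar at the group mean. Tianeptine has the highest group mean in all 4 panels; for Mt1 their lowest value, 11.28, lies above all other animals, and for C3 their lowest, 8.81, lies below agomelatine 1 at 8.87, and tianeptine 3 is the highest point for Itgam and Gfap.

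The circadian clock is a loop in which CLOCK and BMAL1 bind E-box sequences and switch on the genes Per, Cry, Nr1d1, Nr1d2, Dbp and Bhlhe41. NR1D1 and NR1D2 (REV-ERB) in turn bind RORE sequences and repress Bmal1, Clock and Nfil3. The RefSeq promoters are shown for 3 clock genes that carry these motifs in the window from 250 bases before to 50 after the start. All 3 genes were also at an unadjusted p under 0.05 between the drugs by limma. Bhlhe40 and Tef held the E-box too, but they were not at that threshold and are not shown. Capitals mark the RORE core TAGGTCA in Bmal1 and the E-box CACGTG in Nr1d1 and Bhlhe41. The promoters are at chr1:176766078-176766377 on the plus strand, chr10:84229405-84229704 on the minus strand and chr4:180569306-180569605 on the minus strand of GRCr8, and each reads 5′ to 3′ along its gene. Nr1d1 has 2 promoters in the RefSeq table, and the one with the motif is shown.
Bmal1: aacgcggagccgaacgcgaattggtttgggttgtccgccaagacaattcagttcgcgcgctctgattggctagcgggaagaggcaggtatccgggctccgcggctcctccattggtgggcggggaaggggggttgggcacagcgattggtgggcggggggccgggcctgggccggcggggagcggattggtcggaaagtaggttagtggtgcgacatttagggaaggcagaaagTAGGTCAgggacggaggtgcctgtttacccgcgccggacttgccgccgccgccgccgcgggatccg
Nr1d1: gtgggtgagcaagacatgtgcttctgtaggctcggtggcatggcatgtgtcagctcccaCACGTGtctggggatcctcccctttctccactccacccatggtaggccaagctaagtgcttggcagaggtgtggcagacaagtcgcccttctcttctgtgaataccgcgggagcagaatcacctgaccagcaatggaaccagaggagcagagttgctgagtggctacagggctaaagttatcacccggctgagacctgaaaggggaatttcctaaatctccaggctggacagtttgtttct
Bhlhe41: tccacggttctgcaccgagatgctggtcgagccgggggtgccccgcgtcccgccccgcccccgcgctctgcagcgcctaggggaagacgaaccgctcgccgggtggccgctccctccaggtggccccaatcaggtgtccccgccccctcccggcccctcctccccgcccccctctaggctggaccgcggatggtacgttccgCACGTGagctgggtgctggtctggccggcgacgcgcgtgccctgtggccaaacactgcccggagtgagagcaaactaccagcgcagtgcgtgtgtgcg
Of 33469 RefSeq promoters of this length, 6.42% hold the E-box and 2.63% the RORE core on either strand. Among the 15 tested clock genes, 14 had a promoter in the table: the E-box was found in 4 (Bhlhe40, Bhlhe41, Nr1d1 and Tef) and the RORE core in Bmal1 alone. Neither motif overlapped the other, and a match is a description of the letters.

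Of the 15 tested clock genes 0 passed the adjusted threshold, and 7 (46.7%) were at an unadjusted p under 0.05, against 4.45% of all tested genes. This list and the others below were chosen with earlier results of these data known, so such shares are a description. The median of the clock list was -0.05, against 0.01 for all tested genes, with 5 genes above 0 and 10 below. Of the 7, Nfil3, Bmal1 and Clock were higher with fluoxetine and Nr1d1, Nr1d2, Dbp and Bhlhe41 lower. Bmal1, the partner of CLOCK, was at 9.42, 9.29 and 9.35 with fluoxetine and 9.16, 9.21 and 9.19 with tianeptine, without overlap (0.17 ± 0.06). Clock was at 10.74, 10.73 and 10.90 against 10.54, 10.67 and 10.71, also without overlap (0.15 ± 0.06). Nfil3, a repressor that competes with DBP for its sites, was at 8.62, 8.65 and 8.69 against 8.44, 8.30 and 8.41 (0.27 ± 0.08).

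The opposite direction was seen at Nr1d2, which was at 9.94, 10.05 and 10.00 with fluoxetine and 10.17, 10.15 and 10.22 with tianeptine (-0.18 ± 0.07). Its paralogue Nr1d1 gave -0.25 ± 0.11 from 10.55, 10.64 and 10.96 against 11.07, 10.78 and 11.07, and fluoxetine 3 lay inside the tianeptine range. Dbp, an activator of output genes, gave -0.20 ± 0.09 with overlap. Bhlhe41, a repressor of CLOCK and BMAL1, was at 9.37, 9.33 and 9.54 against 9.64, 9.55 and 9.60 without overlap (-0.18 ± 0.08). The period and cryptochrome genes overlapped between the drugs, with differences of -0.05, -0.12 and -0.11 at Per1, Per2 and Per3, and -0.04 and -0.01 at Cry1 and Cry2. Tef, an activator of output genes related to DBP, also overlapped and lay on the other side of 0 from Dbp, at 0.03 ± 0.08. Set against the same stressed animals, fluoxetine differed by 0.10 at Nfil3 and by -0.05 to 0.03 at the other 6 of the 7 genes. Tianeptine differed from stress alone by -0.17 at Nfil3, -0.15 at Bmal1 and at Clock, 0.14 at Nr1d2, 0.23 at Nr1d1, 0.19 at Dbp and 0.13 at Bhlhe41. The hour of tissue collection is not stated in the labels. The count of 7 depended on single animals. It was 2 without fluoxetine 1 (3.45% of all genes), 3 without tianeptine 1 (2.39%), 3 without tianeptine 3 (6%) and 5 without fluoxetine 2 (4.62%). It was 7 without tianeptine 2 (3.82%), 8 without fluoxetine 3 (7.55%), and 4 in a fit on the 6 animals alone (4.52%). The list median ran from -0.03 without fluoxetine 2 to -0.15 without fluoxetine 3.

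**Figure D3:**
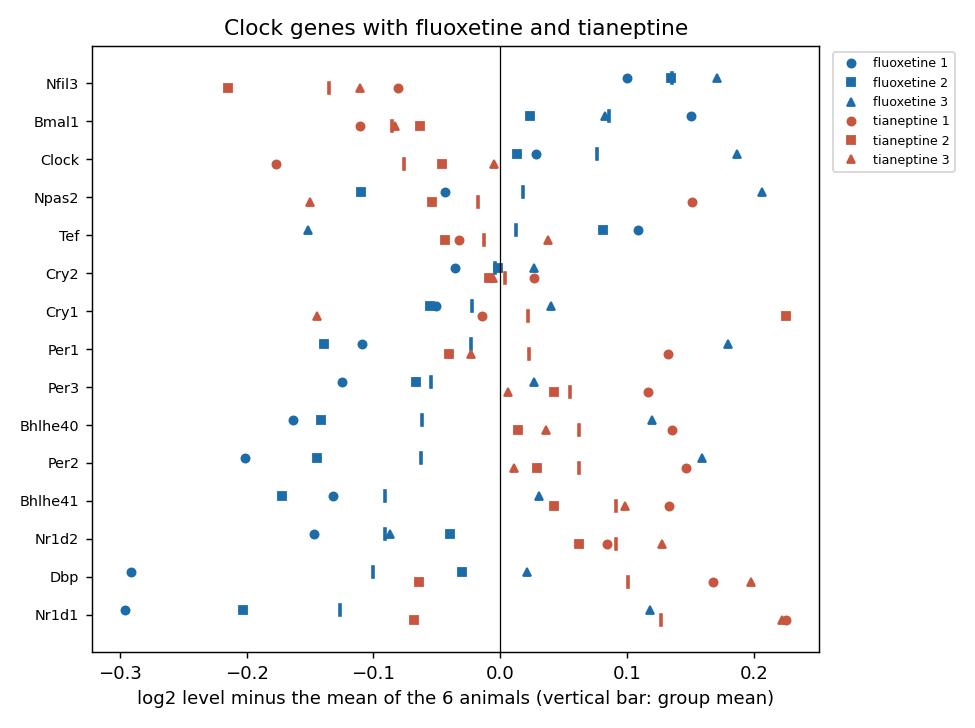
Log2 level of each of 15 clock genes, 1 gene per line, as the difference from the mean of the 6 animals (horizontal axis), with blue marks for fluoxetine, red marks for tianeptine, marker shape for replicate number and a vertical bar at each group mean. Nfil3, Bmal1 and Clock at the top have all fluoxetine animals to the right of all tianeptine animals, Nr1d2 and Bhlhe41 have them to the left, and at Nr1d1 and Dbp 1 animal of each drug lies on the other drug's side of 0.

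Chaperones of the endoplasmic reticulum fold secreted and membrane proteins and are induced together when unfolded protein accumulates, through the element ERSE to which ATF6 binds with NF-Y. The promoters of Hspa5, Hsp90b1 and Calr are shown because these are the 3 genes of the heat shock and unfolded protein list at an unadjusted p under 0.05 and all hold the ERSE letters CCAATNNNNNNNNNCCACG, marked by capitals, on either strand. They are at chr3:38452766-38453065 (plus), chr7:23012244-23012543 (minus) and chr19:40213117-40213416 (plus) of GRCr8, from RefSeq, read 5′ to 3′ along the gene.
Hspa5: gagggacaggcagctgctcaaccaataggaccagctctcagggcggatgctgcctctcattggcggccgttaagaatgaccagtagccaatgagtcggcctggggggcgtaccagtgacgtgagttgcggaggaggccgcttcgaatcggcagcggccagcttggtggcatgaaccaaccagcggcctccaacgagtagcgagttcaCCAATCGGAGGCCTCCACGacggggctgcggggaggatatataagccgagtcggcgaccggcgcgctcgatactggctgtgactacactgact
Hsp90b1: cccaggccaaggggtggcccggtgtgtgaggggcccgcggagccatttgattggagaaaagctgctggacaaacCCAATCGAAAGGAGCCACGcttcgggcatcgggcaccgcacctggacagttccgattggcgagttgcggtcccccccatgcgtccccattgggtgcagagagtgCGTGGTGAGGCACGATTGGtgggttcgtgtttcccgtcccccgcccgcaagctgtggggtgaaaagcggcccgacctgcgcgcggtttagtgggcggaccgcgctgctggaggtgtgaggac
Calr: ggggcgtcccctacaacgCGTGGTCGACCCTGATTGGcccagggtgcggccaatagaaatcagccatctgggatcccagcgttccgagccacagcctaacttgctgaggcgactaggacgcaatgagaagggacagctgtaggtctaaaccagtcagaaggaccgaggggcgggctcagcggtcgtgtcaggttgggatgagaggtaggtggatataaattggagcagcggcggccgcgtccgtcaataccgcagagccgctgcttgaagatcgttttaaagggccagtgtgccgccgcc
The motif was found in 22 of 33469 promoters (0.0657%) and in 6 of the 20 list genes with a promoter in the table. The other 3 were Xbp1, Canx and Creld2, whose differences were 0.07, -0.07 and -0.12, so the motif was present in genes on both sides of 0.

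None of the 25 tested genes of that list passed the adjusted threshold, and the 3 at an unadjusted p under 0.05 (12%) compare with 4.45% of all genes. The list had 19 genes above 0 and 6 below, with a median of 0.06 against 0.01. Hspa5, the chaperone BiP, was at 12.65, 12.54 and 12.48 with fluoxetine and 12.28, 12.49 and 12.21 with tianeptine, so tianeptine 2 lay within the fluoxetine range (0.23 ± 0.09). Calr, the lectin chaperone calreticulin, was at 12.25, 12.32 and 12.14 against 11.95, 12.11 and 12.15 (0.17 ± 0.06), and Hsp90b1 gave 0.16 ± 0.06. Hspa8, the constitutive cytosolic chaperone, barely escaped overlap, at 13.807, 13.827 and 13.682 against 13.617, 13.675 and 13.679 (0.12 ± 0.06). Its other probe sets gave differences of 0.07 to 0.14. Hspa8 was the 1 gene of the 25 without overlap (4%, against 9.83% of all genes), so Hspa5, Calr and Hsp90b1 all overlapped. Fluoxetine 3 sat low across the list, with a mean deviation of -0.10 from each gene's mean over the 18 animals, against 0.08 and 0.02 in the other fluoxetine animals and -0.09 to -0.02 with tianeptine. Without it 9 genes were at an unadjusted p under 0.05 (7.55% of all genes in that fit), without fluoxetine 1 there was 1 (3.45%), and without tianeptine 1 there were 0 (2.39%). The list median ran from 0.02 without fluoxetine 1 to 0.11 without fluoxetine 3.

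**Figure D4:**
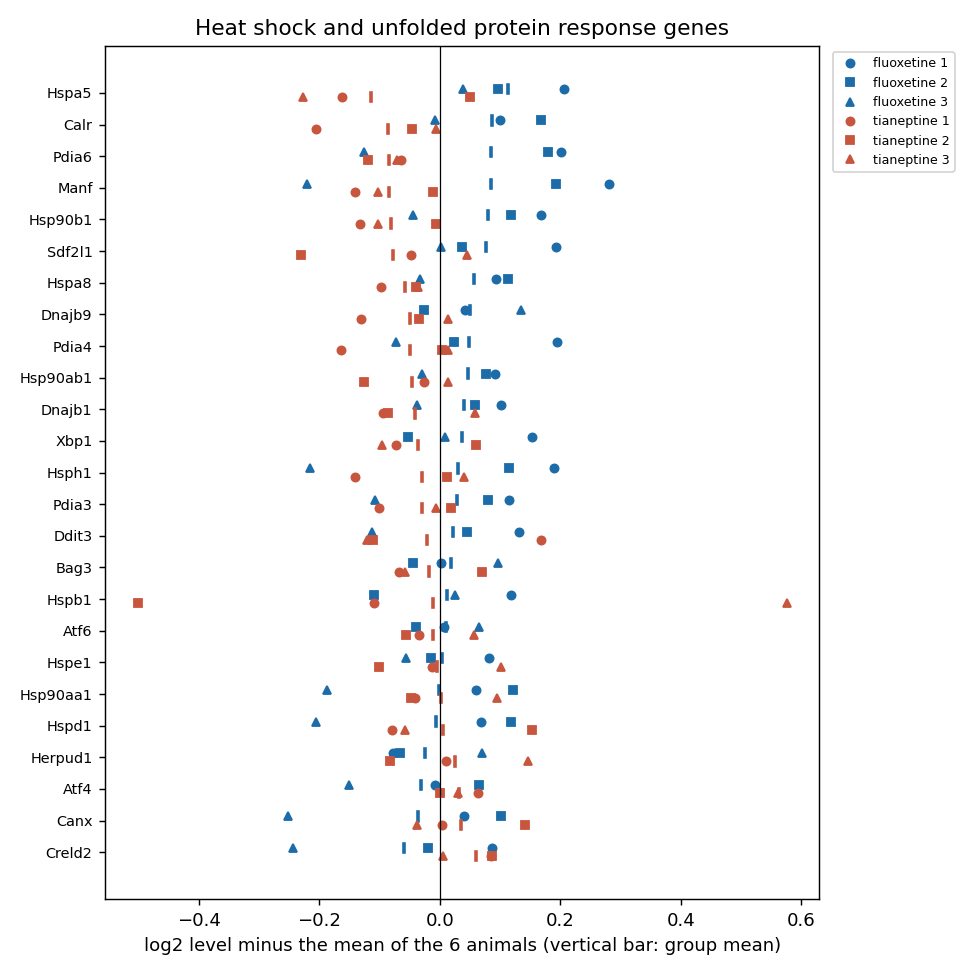
Log2 level of each of 25 heat shock and unfolded protein response genes, 1 gene per line, as the difference from the mean of the 6 animals (horizontal axis), with blue marks for fluoxetine, red marks for tianeptine, marker shape for replicate number and a vertical bar at each group mean. The fluoxetine mean lies to the right at 19 of the 25 genes, and the blue triangle, fluoxetine 3, is often at the left of its group.

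Ribosomal protein genes and genes of oxidative phosphorylation lay above 0 more often than below, with medians that moved when single animals were left out. Of 67 ribosomal protein genes, 42 lay above 0 with a median of 0.04, and 4 were at an unadjusted p under 0.05 (Rps16, Rps10, Rpl13a and Rps26), or 5.97% against 4.45% of all genes. Near-identical copies make single ribosomal genes uncertain on arrays. Other probe sets gave differences of 0.03 to 0.16 for Rps10, 0.008 to 0.15 for Rps26 and 0.18 for Rpl13a. Without fluoxetine 3 the median was 0.12 and the count 18, against 7.55% of all genes in that fit, and without tianeptine 3 the median was 0.09 and the count 8, against 6%. The median was 0.01 without fluoxetine 1, without fluoxetine 2 and without tianeptine 2. The count was 1 without fluoxetine 1 (3.45% of all genes), 6 without fluoxetine 2 (4.62%) and 0 without tianeptine 2 (3.82%). Of the 6, 3 were lower with fluoxetine. Of 65 oxidative phosphorylation genes, 43 lay above 0, with a median of 0.03. That median was 0.09 without fluoxetine 3, 0.07 without tianeptine 3, -0.002 without tianeptine 2 and -0.01 without fluoxetine 1. Ndufb11, a subunit of respiratory complex I, was at 11.83, 11.83 and 11.90 against 11.73, 11.57 and 11.70 without overlap (0.19 ± 0.07). In the cholesterol synthesis pathway, Lss, the cyclase that makes lanosterol, was at 10.08, 9.98 and 10.12 with fluoxetine and 10.22, 10.31 and 10.20 with tianeptine (-0.19 ± 0.08). Acat2 and Fdft1 also gave unadjusted p-values under 0.05 with lower levels in fluoxetine animals, and 12 of the 19 genes of the pathway lay below 0. Genes at that threshold made 15.8% of the pathway, against 4.45% of all genes.

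A panel of 38 genes covered the targets of both drugs and genes of stress, plasticity and the dentate gyrus, and 34 of them were tested. The serotonin transporter gene Slc6a4, the target of fluoxetine, and the kappa-opioid receptor gene Oprk1 were below the level filter, as were Tdo2 and Dsp. Of the 34, 24 lay above 0 and 10 below. The interval held 0 at 31, and at 30 it lay within a 1.5-fold change either way. At an unadjusted p under 0.05 there were 3, against 4.45% of all tested genes, which were Sox11, Pdyn and Vegfa, and 0 passed the adjusted threshold.

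At each of the 5 serotonin receptor genes of the panel the interval of the difference held 0. Htr1a, the inhibitory receptor abundant on granule neurons, was at 11.34, 11.33 and 11.44 with fluoxetine and 11.34, 11.33 and 11.33 with tianeptine, a difference of 0.04 with an interval of -0.16 to 0.24. Htr4, a stimulatory receptor coupled to cAMP, gave -0.01 (-0.17 to 0.15) and Htr1b 0.01 (-0.42 to 0.44). Htr2a, an excitatory receptor, gave a wide interval of -0.44 to 0.95, and Htr2c, a receptor also abundant in choroid plexus, one of -1.59 to 1.49. Over the 15 tested genes of the serotonin list, 9 lay above 0 with a median of 0.01, and without fluoxetine 3 there were 7 with a median of -0.04. S100a10, the p11 protein that carries some serotonin receptors to the membrane, was the 1 of the 15 at an unadjusted p under 0.05 (6.67%, against 4.45% of all genes). It was at 8.40, 8.20 and 8.39 against 8.71, 8.65 and 8.50 without overlap (-0.29 ± 0.11).

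In the opioid system, Oprm1, the receptor that tianeptine activates, was at 8.36, 8.31 and 8.48 with fluoxetine and 8.27, 8.38 and 8.32 with tianeptine, a difference of 0.06 with an interval of -0.10 to 0.21. The delta receptor gene Oprd1 gave 0.05 and the enkephalin precursor gene Penk had an interval of -0.27 to 0.26. Pdyn, which encodes the dynorphins that granule neurons store in their mossy fibres, was at 10.44, 10.39 and 10.35 with fluoxetine and 10.20, 10.08 and 9.99 with tianeptine. The groups did not overlap, and the difference was 0.31 ± 0.12, with fluoxetine 0.14 above stress alone and tianeptine -0.16 from it. Of the 7 tested opioid genes, 6 lay above 0, with a median of 0.06.

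Glutamate genes were close to equal. Gria1, an AMPA receptor subunit, gave 0.01 (-0.12 to 0.14), Grin2b, an NMDA receptor subunit, gave 0.03 (-0.06 to 0.12), and Slc1a2, the main glial glutamate transporter, gave -0.02 (-0.12 to 0.07). The 28 tested glutamate genes had a median of 0.01, from -0.02 to 0.03 with single animals left out. Of them 15 lay above 0 and 1 was at an unadjusted p under 0.05 (3.57%, against 4.45% of all genes). That gene was Grm3, an inhibitory metabotropic receptor of glia and neurons, at 10.81, 10.77 and 10.69 against 10.65, 10.59 and 10.61 (0.14 ± 0.06). Its close relative Grm2, on mossy fibre terminals, did not overlap in the other direction, at 10.11, 9.72 and 9.94 against 10.17, 10.17 and 10.26 (-0.28 ± 0.17), with an interval from -0.63 to 0.08. Of 16 GABA genes 13 lay above 0 with a median of 0.07, which was 0.03 without fluoxetine 1 and 0.04 without fluoxetine 3. Among them were Gad1, the GABA-synthesising enzyme (0.14 ± 0.08, no overlap), and the transporter Slc6a11 (0.18 ± 0.08). The transporter gene Slc32a1 did not overlap in the other direction, at 9.090, 8.989 and 9.044 against 9.160, 9.094 and 9.197 (-0.11). Genes without overlap made 12.5% of the list, against 9.83% of all genes.

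Among genes of activity and plasticity, Bdnf, a neurotrophin of granule neurons, gave 0.02 (-0.22 to 0.27) and its receptor gene Ntrk2 0.04 (-0.07 to 0.16). The immediate early genes Fos, Egr1 and Arc gave 0.07, 0.02 and -0.07, and of 28 activity-regulated genes 0 were at an unadjusted p under 0.05, with 16 above 0. Without fluoxetine 3, 2 of the 28 were at an unadjusted p under 0.05, against 7.55% of all genes, and 11 lay above 0. Without it Egr1 gave -0.09. Dusp1, the MAP kinase phosphatase, was at 9.05, 9.13 and 9.48 with fluoxetine and 9.12, 9.01 and 9.16 with tianeptine, a difference of 0.12 (-0.12 to 0.36) that was -0.01 without fluoxetine 3. Both drugs lay below stress alone at Dusp1, fluoxetine by a difference of -0.57 ± 0.11 and tianeptine by -0.69 ± 0.11, and the 2 values share the stressed animals. limma gave the tianeptine value an adjusted p of 0.0891 and the fluoxetine value one of 0.4. The glucocorticoid receptor gene Nr3c1 gave 0.08, the mineralocorticoid receptor gene Nr3c2 gave 0.01 and the hormone-induced genes Fkbp5 and Sgk1 gave -0.07 and 0.11. Of 20 glucocorticoid-responsive genes, Mt1 and Nfkbia were at an unadjusted p under 0.05 (10%, against 4.45% of all genes). Both were lower with fluoxetine, and the list median was -0.02.

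**Figure D5:**
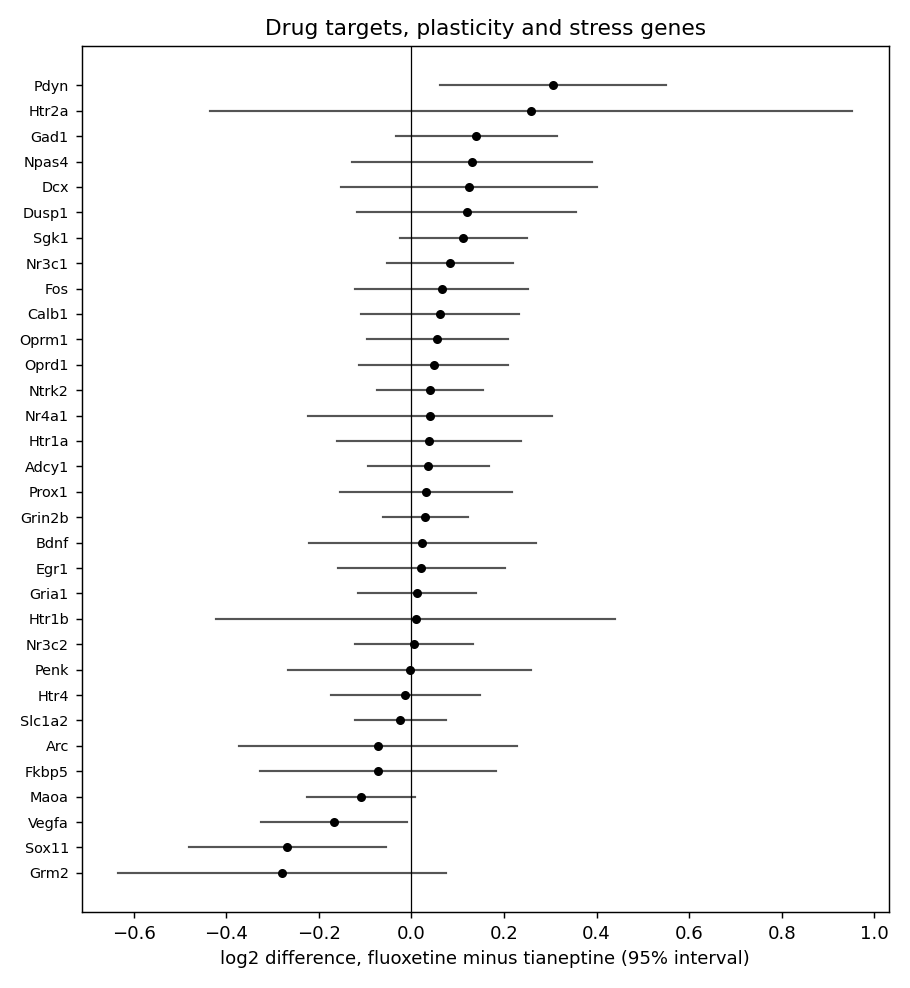
Difference between the drugs (log2, fluoxetine minus tianeptine, horizontal axis) with its 95% interval for each tested panel gene, 1 gene per line. Ttr and Htr2c are left out for their width, and among the genes drawn the intervals of Sox11, Pdyn and Vegfa lie to one side of 0.

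Cell type markers were examined because RNA of whole tissue cannot tell fewer cells of a type from less RNA per cell. Granule neuron markers were near equal, with 6 of 7 tested genes above 0 and a median of 0.05. Of the markers of immature neurons, Dcx, a microtubule protein of migrating neurons, gave 0.12 (-0.15 to 0.40), and -0.03 without fluoxetine 3. Sox11, a transcription factor of newborn neurons, was at 8.68, 8.69 and 8.62 with fluoxetine and 8.97, 8.99 and 8.83 with tianeptine without overlap (-0.27 ± 0.10). Interneuron and oligodendrocyte markers leaned toward fluoxetine, with 10 of 13 and 13 of 15 above 0 and a median of 0.09 in both lists, and 0 genes of either list were at an unadjusted p under 0.05. Without tianeptine 2 the interneuron median was 0.002, and without fluoxetine 1 it was 0.03.

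Microglia markers leaned toward tianeptine, with 12 of 13 tested genes below 0 and a median of -0.11. The mean deviation over the 13 genes was 0.23, -0.13 and 0.45 in the tianeptine animals and 0.03, -0.08 and 0.16 in the fluoxetine animals, so the groups overlapped. Itgam, the integrin CD11b, was at 7.83, 7.22 and 9.04 with tianeptine and 7.31, 7.24 and 7.59 with fluoxetine, and tianeptine 3 stood far above the others. The same animal had the highest Gfap, the intermediate filament of reactive astrocytes, at 12.08 against 11.53 and 11.37 in its group. Astrocyte markers as a list did not share the lean of Gfap: 7 of 13 tested genes lay above 0 with a median of 0.03, and Gfap was the lowest at -0.30. Their mean deviation was 0.04, -0.03 and 0.09 with tianeptine and 0.05, -0.003 and 0.04 with fluoxetine. Without tianeptine 3 the median of the microglia list was -0.03, with 0 genes at an unadjusted p under 0.05 (6% of all genes), and the difference at Itgam was -0.15. Without tianeptine 2 the median was -0.21 and 7 of the 13 genes were lower at an unadjusted p under 0.05 (3.82% of all genes). At C3, which glia make, the difference was -0.83 ± 0.22 without tianeptine 3. The part of the microglia markers in the C3 difference was not tested.

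Markers of endothelium and pericytes also lay lower with fluoxetine, at 13 of 16 genes with a median of -0.12. Slco1a4, an organic anion transporter of the blood-brain barrier, was at 8.75, 8.93 and 8.74 with fluoxetine and 9.28, 9.19 and 8.93 with tianeptine without overlap (-0.33 ± 0.10), and Tek, the receptor TIE2, gave -0.36 ± 0.15. Those 2 were at an unadjusted p under 0.05 (12.5% against 4.45% of all genes). The list median against stress alone was -0.21 for fluoxetine and -0.02 for tianeptine, comparisons that share the stressed animals. Without fluoxetine 3 the median between the drugs was -0.19 and 5 genes were at an unadjusted p under 0.05, against 7.55% of all genes in that fit. Without fluoxetine 1 the median was -0.10 and 2 genes were at that threshold, against 3.45%. The mean deviation over the 16 genes was -0.19, -0.11 and -0.04 with fluoxetine and 0.118, 0.025 and -0.074 with tianeptine, so the groups overlapped. Choroid plexus markers were low in all 6 animals: Ttr, its dominant transcript, lay between 6.94 and 7.52, around the filter level of 7.17. Of the 8 tested choroid markers 7 lay above 0 with a median of 0.11, and 0 were at an unadjusted p under 0.05. Of the 8, 3 did not overlap (37.5% against 9.83% of all genes). The filter mean also took in animals of other groups, and Ttr was at 14.01 in agomelatine 1 and 11.77 in stress 1. Without the filter the list held 16 genes, with 10 above 0, 6 below and a median of 0.04. The lean toward fluoxetine was therefore smaller in the unfiltered list. The mean deviation over the 8 genes was -0.204, -0.180 and -0.157 with fluoxetine and -0.275, -0.216 and -0.380 with tianeptine. The groups did not overlap, but fluoxetine 1 and tianeptine 2 nearly met. These are the genes that passed the filter, and no such score was made for the 16 genes of the unfiltered list. With the 8-gene score as a covariate, limma called 0 genes between the drugs (547 at an unadjusted p under 0.05). The fit without it also called 0, so this count cannot show what choroid plexus content added. The score was highest outside the 6 animals, at 2.75 in agomelatine 1 and 0.69 in stress 1.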

How the data were processed

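Dentate gyrus RNA of 18 animals was read on 21 arrays, with a repeat array for each control. The deposited values are log2 levels of probe sets, for which the authors used Affymetrix Expression Console 1.2 and its RMA method (per the submitters' processing notes). RMA shrinks small differences at low signal. The platform annotation named 1 gene for 15310 of 29214 probe sets, several for 323 and none for 13581, and 15279 matched RefSeq GRCr8 by gene number. No source used here names a genome build for the array. Probe sets with a mean at or above the 25th percentile (log2 7.165) were kept, and the one with the highest mean stood for each of 10804 genes. Values ran from 3.57 to 14.4, array medians from 7.99 to 8.10, and the number of animals limits the precision.

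Each control's first and repeat arrays were averaged. limma 3.58.1 in R 4.3.3 fitted 6 group means over 18 animals (12 residual degrees of freedom, eBayes with trend), and each contrast was adjusted over the genes by Benjamini-Hochberg. Fluoxetine minus tianeptine is the contrast described, and counts of contrasts with imipramine and stress alone stand beside it. A gene was called at an adjusted p under 0.05. Errors after ± are standard errors of the difference unless marked SD. The labels name the samples of a group biological replicates.

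The 12 genes per direction were called genes without overlap, filled by the smallest unadjusted p; panel genes and up to 4 members per list were added. Genes such as Snrpd1, Tef, Per1 and Xbp1, and those described as over 0.5 in size, fall outside that rule: they were chosen with their values in view. The members and lists were chosen with earlier results of these data known. The fit was tested on simulated data. Alternatives covered filters, probe sets, normalization, variance model, array weights, blocks, a choroid plexus covariate and leaving out each animal.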

Additional observations from a re-analysis of the deposited data

How the results depend on the processing

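limma called 0 genes between the drugs under every alternative run, at an adjusted p under 0.1 and without each animal in turn (0 to 0), with 1 exception. With the replicate number as a block in the 6 animals alone, 1 gene was called, C3 (-0.86, adjusted p = 0.0409; 0.0409 to 1 over its alternatives). The numbers did not pair the animals: deviations of same-numbered animals correlated at -0.15, 0.11 and -0.06. The block left 425 genes at an unadjusted p under 0.05 in the 6 animals and 436 over all groups, against 481. That count was 315 of 7106 genes with the filter at the 50th percentile, 1447 of 29214 with all probe sets and 1374 with array weights, where fluoxetine 3 had a weight of 0.31 and fluoxetine 1 and 2 weights of 2.22 and 2.01. It ran from 258 without tianeptine 1 to 816 without fluoxetine 3, and the cause was not tested. The share on the fluoxetine side was 54.3%, and 67.6% with the stricter filter, 38.6% over all probe sets and 53.3% and 52% under the other scalings. Over 3334 values of 169 named genes under these alternatives, none changed sign and passed a threshold. A change of sign together with a move of at least the main standard error was seen in 12. The threshold was passed by 1, C3. The main fit called 0 genes, so no call could be lost or reversed. Moves that kept the sign were not counted, such as Itgam from -0.65 to -0.15. The sign was kept in all alternatives by 147 of the 169 genes. Of 340 list medians, 21 moved by more than the SD between animals of the list's mean deviation. C3 ran from -1 to -0.72 and Mt1 from -0.33 to -0.21. The median 95% interval reached 0.17 to either side of the difference.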

Other observations

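Potassium channel genes held members on both sides. Kcnj2, an inward rectifier that sets resting potential, was at 9.24, 9.12 and 9.12 with fluoxetine and 9.02, 8.93 and 8.66 with tianeptine without overlap (0.29 ± 0.11 SE), and lay 0.29 above stress alone with fluoxetine and at -0.004 from it with tianeptine. Kcng1, a modifier subunit, gave -0.18 ± 0.07. Of 42 tested potassium channel genes, 30 lay above 0 with a median of 0.05, and without fluoxetine 3 there were 20 above 0 with a median of -0.01. In the cAMP pathway, Pde1a, a phosphodiesterase activated by calmodulin, was at 11.20, 11.22 and 11.15 with fluoxetine and 10.97, 10.88 and 10.93 with tianeptine (0.26 ± 0.11). It was the 1 of 24 genes at an unadjusted p under 0.05 (4.17%, against 4.45% of all genes). All 3 have an adjusted p of 0.998 by limma.

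Ldha, lactate dehydrogenase A, had the largest difference of the 10804 genes, -1.45 ± 1.07, and was chosen here after its values were seen. On the probe set that stood for the gene it was at 7.42 in fluoxetine 1 and at 12.29 and 12.18 in the other fluoxetine animals, and at 12.11, 11.92 and 12.22 with tianeptine. Control 2 was the 1 other animal with such a value, 7.31 on its first array and 7.34 on its repeat array, while controls 1 and 3 lay between 12.17 and 12.26 on their 4 arrays. On a further probe set for Ldha, fluoxetine 1 was at 11.81 and control 2 at 11.50 and 11.53, inside the range of the other animals. The difference at this gene therefore rests on 1 probe set in 1 of the 6 animals.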
